A study of Homo sapiens with 4 samples.

Results

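The expression of 10 genes of the NRF2 pathway and its antioxidant enzymes was examined in darolutamide-resistant prostate cancer cells with and without knockdown of the long non-coding RNA LOC730101. The genes were taken by name from the count table, which lists 60606 genes, and all 10 were found in it and passed the expression filter that left 19349 genes for testing. They are NFE2L2, KEAP1, NQO1, HMOX1, GCLM, TXNRD1, SRXN1, TXN, GPX4 and PRDX1. The cells are LNCaP-DaroR, a line made from the androgen receptor-positive LNCaP prostate cancer cell line by long culture in the antiandrogen darolutamide, and it is kept in medium with the drug. Every library comes from this 1 resistant line, and every culture was transfected with siRNA. There were 2 siControl libraries, from cells given control siRNA, and 2 siLOC730101 libraries, from cells given a pool of siRNAs against LOC730101. The time between transfection and RNA extraction is not given in the sources used here, and a culture without siRNA was not analysed here. Where nothing says that the replicates are separate cultures, the p-values measure only the spread between these libraries.

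NRF2, the product of NFE2L2, is a transcription factor that is held down by KEAP1, an adaptor that brings it to the CUL3 ubiquitin ligase for degradation. Oxidants and electrophiles modify cysteines of KEAP1, NRF2 then accumulates, pairs with a small MAF protein and binds the antioxidant response element in front of its target genes, while BACH1 competes for the same element. Because this control acts on the protein, the mRNA of NFE2L2 need not follow the activity of NRF2, and the mRNAs of target genes such as NQO1, GCLM, TXNRD1, SRXN1 and HMOX1 are commonly read in its place.

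The core of the antioxidant response element, TGACNNNGC, was searched on both strands of RefSeq promoters (GRCh38.p14), each reaching from 250 bases before to 50 bases after a gene's start, and the matches are printed because this is the letter code through which NRF2 meets its targets. Of the 10 genes, 8 had an entry, with 13 start sites between them; HMOX1 and PRDX1 had none. A match was found in 4 of these 13 windows, in GCLM, TXNRD1 and KEAP1, and in 13.3% of all 35116 promoters. The 6 matches are given 5′ to 3′ on the strand that reads TGACNNNGC, with the 9 bases of the match in capitals:
GCLM, chr1:93909446-93909474, strand opposite to the gene, 34 bases before the start: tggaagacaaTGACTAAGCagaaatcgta
TXNRD1, chr12:104215670-104215698, strand of the gene, 99 bases before the first start: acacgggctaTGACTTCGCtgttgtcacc
TXNRD1, chr12:104215761-104215789, opposite strand, 8 bases before the first start: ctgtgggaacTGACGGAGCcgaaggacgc
TXNRD1, chr12:104286920-104286948, opposite strand, 102 bases before the other start: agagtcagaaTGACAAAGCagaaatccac
KEAP1, chr19:10502807-10502835, strand of the gene, 54 bases before the downstream of its 2 starts: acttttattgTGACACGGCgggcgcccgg
KEAP1, chr19:10502784-10502812, opposite strand, 31 bases before the same start: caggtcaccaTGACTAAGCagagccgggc
Each distance is counted to the end of the match that lies farthest upstream in the gene's direction. The TXNRD1 match at 8 bases therefore reaches onto the start itself. A match is a string of letters and not a measured binding site. These letters were not found in the windows of NFE2L2, NQO1, TXN, GPX4 and SRXN1, which says nothing of elements farther away.

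The libraries held between 39213498 and 53368158 counts. LOC730101 was read from the count table as ENSG00000216775. It was counted 2560 and 2370 times in siControl against 633 and 680 times in siLOC730101 (log2 fold change -1.56, standard error, SE, 0.12, edgeR adjusted p = 4.34e-06). The 9 markers of luminal prostate and LNCaP cells were all above 1 CPM in every library, with summed levels of 6760 to 7490 in siControl and 7340 to 7650 in siLOC730101. Of 3 basal markers KRT5 and TP63 had 0 counts in every library and KRT14 lay at 0.195 to 0.632 CPM. Of 3 leukocyte markers PTPRC and CD3E had 0 counts and CD68 reached at most 0.0243 CPM. Of 5 fibroblast markers COL1A2 and LUM had 0 counts, DCN had 0.037 CPM in 1 library, COL1A1 had 11 to 14.7 and COL3A1 had 2.86 to 3.87, and the summed level was 13.9 to 18.0 in siControl and 14.8 to 15.1 in siLOC730101. siLOC730101 replicate 2 differed from replicate 1 by exon length. Over all genes tested, the median of replicate 2 minus replicate 1 on the log2 scale was -0.00592 for genes of up to 1000 exon bases, 0.125 from there up to 2000, 0.0859 up to 4000 and -0.0196 above 4000, so that genes of middle length stood out and the shortest did not. The same medians between the siControl libraries were 0.0236, 0.017, 0.0167 and -0.00985. Among the 10 NRF2 and antioxidant genes, 9 were higher in siLOC730101 replicate 2 than in replicate 1. Between the siControl libraries, 5 of the 10 were higher in replicate 2. The same shares over all genes tested were not computed.

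Levels in each library are given as CPM (a gene's share of all counts in the library, scaled to a common total) after TMM normalization, and fold changes are siLOC730101 against siControl. None of the 10 genes passed an adjusted p of 0.05 in edgeR's quasi-likelihood test in either direction, where 55 of the 19349 genes tested (0.284%) did, 0.212% higher and 0.0724% lower. At an unadjusted p under 0.05 there were 2, HMOX1 and GPX4, both higher, where the share over all genes was 10.8%. DESeq2 called 1 of the 10, GPX4, where it called 2.46% of the 9525 genes it gave an adjusted p higher and 0.661% lower. The fitted log2 fold change was above 0 for 9 of the 10 genes, with a median of 0.13, and over all genes tested it was above 0 for 49.6%, with a median of -0.0021. That median differed by exon length. It was -0.0983 for genes of up to 1000 exon bases, 0.0601 up to 2000, 0.0403 up to 4000 and -0.0158 above 4000. The 10 genes reach from 1010 exon bases (TXN) to 14975 (NFE2L2), and the part of exon length in their direction was not tested. In 5 genes the libraries of the groups did not overlap, with HMOX1, GPX4, PRDX1 and TXNRD1 higher and NFE2L2 lower in siLOC730101. Groups without overlap made up 41.7% of all genes tested. For 1 gene alone, the smallest two-sided p that an exact permutation test of 2 against 2 libraries allows is 0.333.

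**Figure D1:**
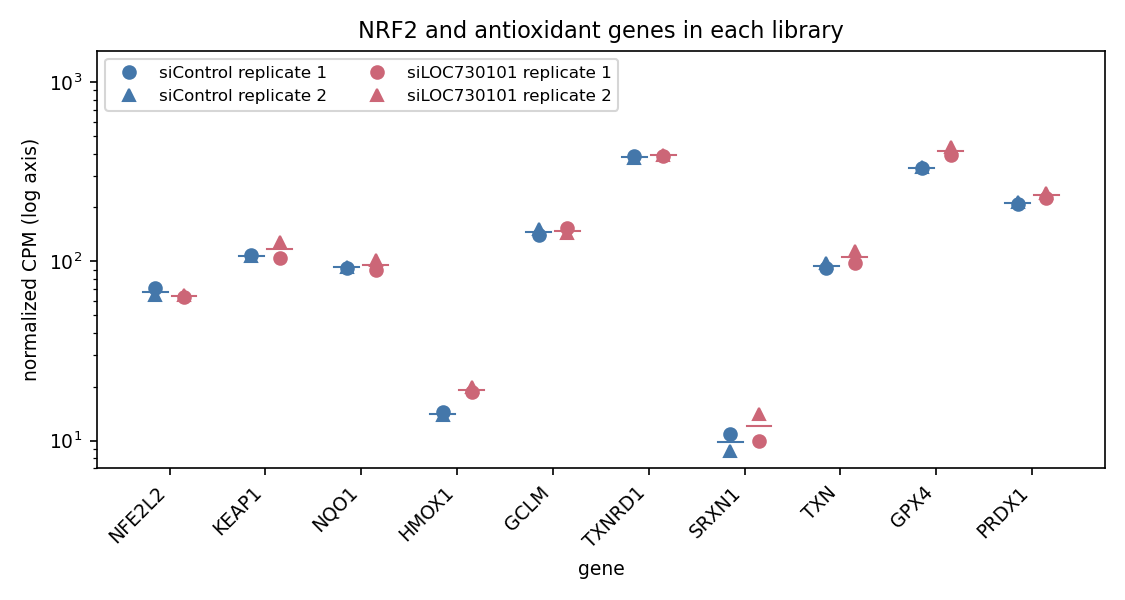
Normalized CPM (log axis) of the 10 genes in each of the 4 libraries; circles and triangles are replicates 1 and 2, and short lines are group means. HMOX1 lies at 14.4 and 13.9 in siControl and at 18.6 and 19.9 in siLOC730101, while GCLM, TXNRD1 and NQO1 stay nearly level.

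NFE2L2, the gene of NRF2 itself, lies on the minus strand of chromosome 2 from 177218667 to 177392756 (GRCh38, as all gene positions from the count table here). Its siControl counts were 3826 and 3042 and its siLOC730101 counts 2604 and 2463, or 70.8, 65.0, 63.4 and 64.9 normalized CPM. The lower siControl library and the higher siLOC730101 library were almost equal, so that the groups were separated by little. The log2 fold change was -0.082 (SE 0.089, 95% interval -0.27 to 0.11, edgeR adjusted p = 0.813). It was -0.018 without siControl replicate 1, -0.14 without siControl replicate 2 and -0.024 with the trend of each library against exon length removed. KEAP1, its inhibitor, lies on chromosome 19 from 10486125 to 10503558, with 108.1 and 107.5 normalized CPM in siControl and 104.2 and 129.1 in siLOC730101. The siControl libraries agreed closely, and the siLOC730101 libraries fell on either side of them. Its log2 fold change of 0.11 (SE 0.096, 95% interval -0.092 to 0.32, edgeR adjusted p = 0.743) became 0.27 without siLOC730101 replicate 1 and -0.052 without siLOC730101 replicate 2. Alternatives that kept all 4 libraries gave adjusted p-values of 0.659 to 0.894 (edgeR or DESeq2). The ratio of KEAP1 to NFE2L2 counts within a library, which no scaling can move, was 1.53 and 1.66 in siControl and 1.64 and 1.99 in siLOC730101. These ratios overlapped between the groups. This ratio and the others given here were chosen after values had been seen.

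HMOX1 encodes haem oxygenase 1, the inducible enzyme that breaks haem down to biliverdin, iron and carbon monoxide, and is a target of NRF2 that BACH1 represses. It lies on chromosome 22 from 35380361 to 35394214. Its counts were 777 and 650 in siControl and 766 and 754 in siLOC730101, and the normalized CPM was 14.1 ± 0.34 (SD, n = 2) and 19.3 ± 0.86 (SD, n = 2). Both siLOC730101 libraries lay above both siControl libraries, and the gap between the groups was wider than the spread within either. The log2 fold change of 0.45 (SE 0.14, 95% interval 0.16 to 0.74) was the largest of the 10, a fold change of 1.36, with an unadjusted p of 0.00515 and an adjusted p of 0.191 (edgeR). Leaving out 1 library at a time gave 0.40 to 0.50. Alternatives that kept all 4 libraries gave adjusted p-values of 0.066 to 0.247 (edgeR or DESeq2). The ratio of HMOX1 to NFE2L2 counts was 0.203 and 0.214 in siControl and 0.294 and 0.306 in siLOC730101, without overlap. HMOX1 was higher and NFE2L2 lower in normalized CPM, each without overlap, so their ratio could not overlap and adds nothing to these values.

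NQO1, GCLM and TXNRD1 are among the most widely used readouts of NRF2. NQO1, a quinone reductase on chromosome 16 from 69706996 to 69726668, had 92.2 and 93.2 normalized CPM in siControl and 89.8 and 102.2 in siLOC730101. The siLOC730101 libraries enclosed the siControl libraries, and the log2 fold change was 0.049 (SE 0.087, 95% interval -0.14 to 0.24, edgeR adjusted p = 0.905). GCLM, the modifier subunit of the enzyme that starts glutathione synthesis, on chromosome 1 from 93885199 to 93909456, had 141.0 and 152.4 in siControl and 152.9 and 143.7 in siLOC730101. Each group held a high and a low library, and the log2 fold change of 0.016 (SE 0.080, 95% interval -0.15 to 0.19, edgeR adjusted p = 0.974) turned to -0.015 with upper-quartile factors. TXNRD1, the selenoprotein that reduces thioredoxin in the cytosol, on chromosome 12 from 104215779 to 104350307, had 386.1 and 377.3 in siControl and 387.1 and 394.1 in siLOC730101. Its groups nearly met at their nearest libraries, and the log2 fold change was 0.033 (SE 0.070, 95% interval -0.12 to 0.18, edgeR adjusted p = 0.923). With library size as the only scaling it was -0.0042.

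**Figure D2:**
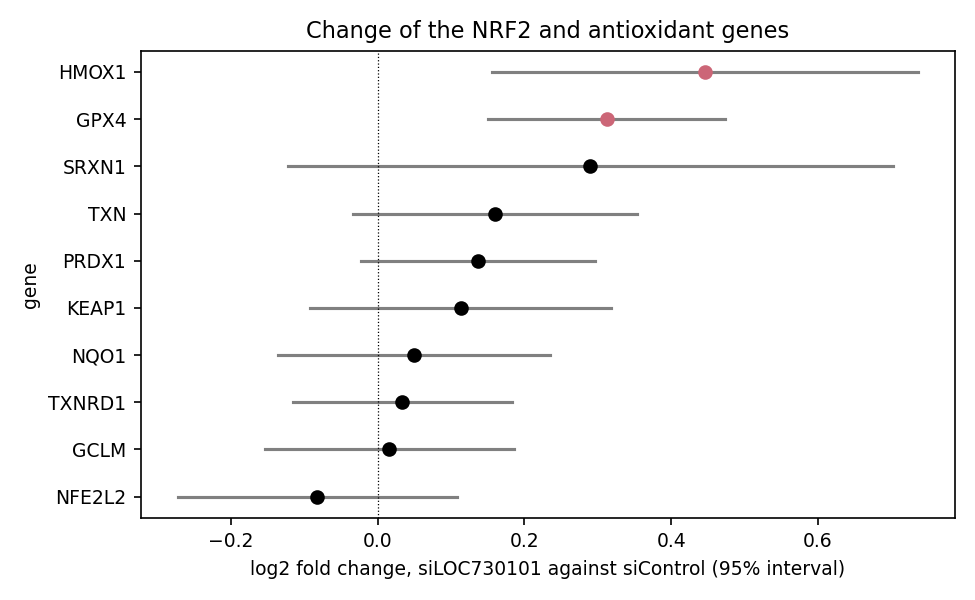
Fitted log2 fold change of each gene, siLOC730101 against siControl, with its 95% interval from the edgeR fit; red points have an unadjusted p under 0.05 and none passed after adjustment. HMOX1 (0.45) and GPX4 (0.31) have intervals above 0, and the intervals of the other 8 genes hold 0.

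GPX4, a selenoprotein that reduces lipid hydroperoxides in membranes and protects cells from ferroptosis, had the smallest p of the 10 genes. It lies on chromosome 19 from 1103994 to 1106791. Its counts were 17872 and 15805 in siControl and 16101 and 16621 in siLOC730101. In normalized CPM it was at 330.6 and 337.7 in siControl and at 391.9 and 437.8 in siLOC730101, with means of 334.1 ± 4.99 and 414.8 ± 32.5 (SD, n = 2 each). The siControl libraries were close together, the siLOC730101 libraries were wider apart, and both of the latter were above the former. The log2 fold change was 0.31 (SE 0.076, 95% interval 0.15 to 0.47), a fold change of 1.24, with an unadjusted p of 9e-04 and an adjusted p of 0.106 (edgeR). GPX4 ranked 165 of the 19349 genes by p. It passed the adjusted threshold in DESeq2 (adjusted p = 0.00356), in edgeR with every gene of at least 1 count kept (adjusted p = 0.00758) and in edgeR without siLOC730101 replicate 1 (log2 fold change 0.40, adjusted p = 3.38e-06). Without siLOC730101 replicate 2 the log2 fold change was 0.23 (edgeR adjusted p = 0.151), and the largest adjusted p over all alternatives was 0.275.

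TXNRD1 and GPX4 are both selenoproteins, and their counts give a ratio that no scaling can move. The ratio of GPX4 to TXNRD1 was 0.856 and 0.895 in siControl and 1.01 and 1.11 in siLOC730101, without overlap. Of 6 ratios computed, this one and HMOX1 to NFE2L2 did not overlap and the other 4 did, KEAP1 to NFE2L2 among them. Single genes without overlap made up 41.7% of all genes tested, and no such share was computed for ratios. The ratio of TXN to TXNRD1 was 0.237 and 0.260 in siControl and 0.252 and 0.289 in siLOC730101. NQO1 to GCLM had 0.654 and 0.612 in siControl and 0.587 and 0.711 in siLOC730101, and SRXN1 to PRDX1 had 0.0519 and 0.0404 against 0.0440 and 0.0582. GPX4 has 1951 exon bases and TXNRD1 has 6710, and the exon length moved with the difference between the siLOC730101 libraries over all genes. With the trend of each library against exon length removed, the log2 fold change was 0.24 for GPX4 (edgeR adjusted p = 0.114) and 0.38 for HMOX1 (edgeR adjusted p = 0.247). The part of exon length in the remaining difference was not tested.

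TXN, SRXN1 and PRDX1 belong to the thioredoxin relay, in which PRDX1 removes hydrogen peroxide, TXN reduces PRDX1 again and SRXN1 rescues peroxiredoxins that have been over-oxidized. TXN, on chromosome 9 from 110243810 to 110256507, had 91.5 and 98.0 normalized CPM in siControl and 97.7 and 113.9 in siLOC730101. The lower siLOC730101 library lay just under the higher siControl library, and the log2 fold change was 0.16 (SE 0.091, 95% interval -0.034 to 0.35, edgeR adjusted p = 0.564). It was 0.28 without siLOC730101 replicate 1 (edgeR adjusted p = 0.0400, against up to 0.990 when other libraries were left out) and 0.043 without siLOC730101 replicate 2. PRDX1, on chromosome 1 from 45510914 to 45542732, had 209.1 and 215.5 in siControl and 225.6 and 241.4 in siLOC730101. The groups did not overlap, and the log2 fold change was 0.14 (SE 0.075, 95% interval -0.022 to 0.30, edgeR adjusted p = 0.545). It was 0.085 without siLOC730101 replicate 2 and 0.068 with the trend against exon length removed. SRXN1, on chromosome 20 from 646615 to 653200, had the widest SE of the 10 genes, with 587 and 408 counts in siControl and 408 and 533 in siLOC730101. Its normalized CPM of 10.9 and 8.72 in siControl and 9.93 and 14.04 in siLOC730101 overlapped, and the log2 fold change of 0.29 (SE 0.19, 95% interval -0.12 to 0.70, edgeR adjusted p = 0.641) moved to 0.53 when siLOC730101 replicate 1 was left out and to 0.017 when replicate 2 was left out.

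For 8 of the 10 genes the 95% interval of the fold change lay within 1.5-fold in either direction. The exceptions were HMOX1, whose interval of the fold change reached from 1.11 to 1.67, and SRXN1, from 0.918 to 1.63. Each interval is for 1 gene taken alone.

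**Figure D3:**
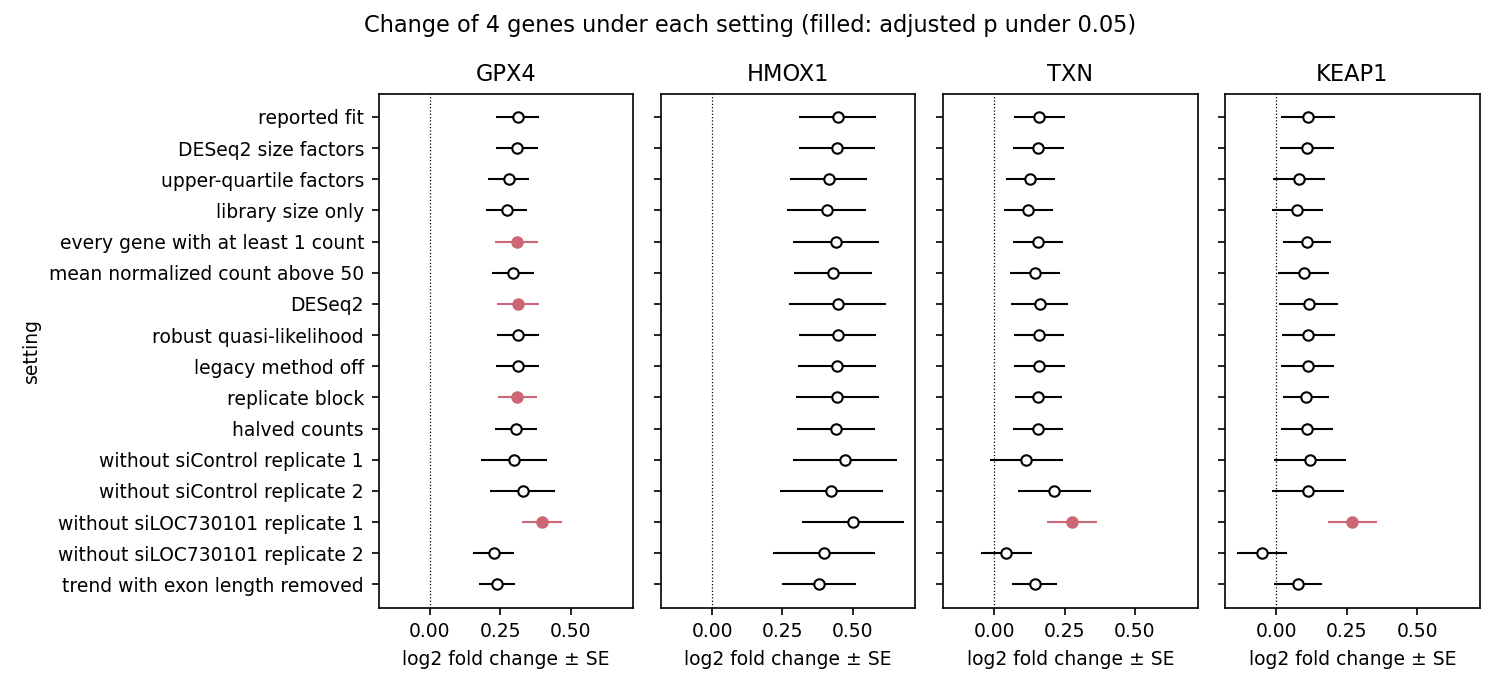
Log2 fold change ± SE of GPX4, HMOX1, TXN and KEAP1 under the reported fit and each other setting; filled red points have an adjusted p under 0.05. GPX4 and HMOX1 stay above 0 under every setting drawn, and KEAP1 reaches -0.052 without siLOC730101 replicate 2.

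The positions of exons in the count table show how much of each gene could be counted. The counting command in the file header has no option to count a read for more than 1 gene, so that reads on exon bases shared with another gene are given to neither. SRXN1 shares 2292 of its 2528 exon bases (90.7%) with ENSG00000270299, on the same strand, which had 15 to 43 counts. NFE2L2 shares 38.4% of 14975 bases, of which 3509 are shared with HNRNPA3 on the opposite strand and 2037 with ENSG00000213963 on its own strand. PRDX1 shares 29.8% of 1682 bases with MMACHC and NQO1 shares 19.4% of 2971 bases with ENSG00000261602, both on the opposite strand. KEAP1, HMOX1, GCLM, TXNRD1, TXN and GPX4 share 0 bases. Of the annotated copies, PRDX1P1 and 5 of 7 TXN copies had 0 counts in every library, and TXNP4 and TXNP6 had 9 and 21 counts in all 4 libraries together.

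**Figure D4:**
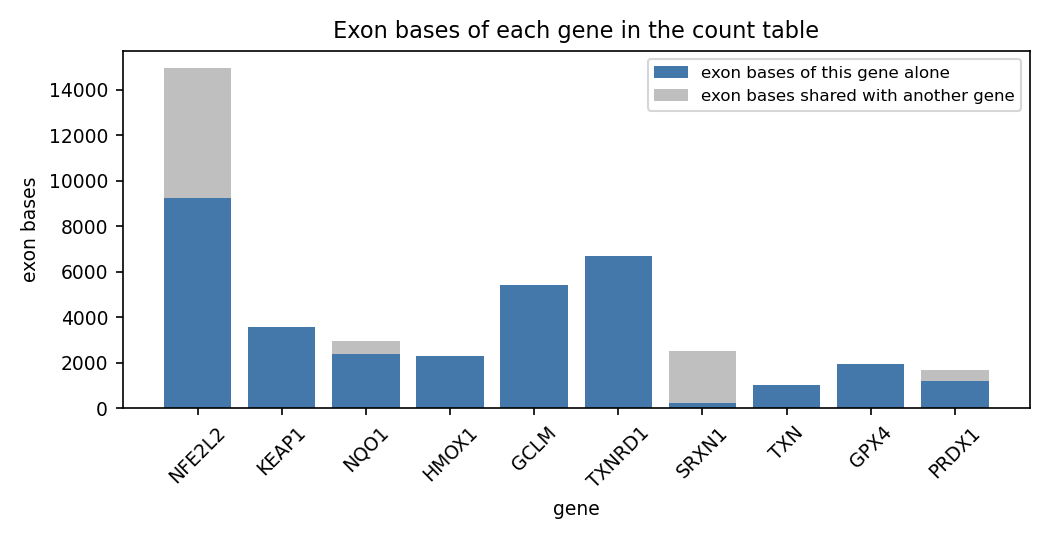
Exon bases of each gene in the count table, divided into bases of that gene alone (blue) and bases shared with another gene (grey), on which reads are not assigned. SRXN1 keeps 236 of 2528 bases, while 6 of the genes keep all of theirs.

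Levels of different genes were therefore compared in normalized CPM per kilobase of unshared exon, as the range over the 4 libraries. This measure replaced the planned one, which used the full exon length. GPX4, with 169.5 to 224.4, and PRDX1, with 177.1 to 204.4, were the highest of the 10, and their order differed between the groups. In siControl GPX4 had 169.5 and 173.1 and lay below PRDX1, with 177.1 and 182.5, and in siLOC730101 GPX4 had 200.9 and 224.4 against 191.0 and 204.4 in the same libraries. TXN followed with 90.6 to 112.8 and TXNRD1 with 56.2 to 58.7, each separate from its neighbour except that SRXN1, with 36.9 to 59.5, overlapped TXNRD1 and also NQO1, with 37.5 to 42.7. The place of SRXN1 rests on a divisor of only 236 unshared bases and is uncertain. KEAP1 had 29.2 to 36.1 and GCLM had 26.0 to 28.2. By this measure HMOX1 and NFE2L2 were lowest and also changed order. HMOX1 had 6.23 and 6.02 in siControl, below NFE2L2 with 7.67 and 7.04, and 8.08 and 8.61 in siLOC730101, above NFE2L2 with 6.87 and 7.03. Their order depended on the divisor, and over the full exon length HMOX1 lay above NFE2L2 in every library. The 9228 unshared bases of NFE2L2 come from all its annotated exons. How many of them are transcribed in these cells was not tested. Over the full exon length PRDX1 had 124.3 to 143.5 and lay below GPX4 in every library, and SRXN1 had 3.45 to 5.55 and overlapped NFE2L2, with 4.23 to 4.73, below HMOX1.

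The surrounding pathway was read with 8 lists chosen with earlier results of these data known. They hold 129 further genes, of which 120 were tested. None of them passed an adjusted p of 0.05 in edgeR. At an unadjusted p under 0.05 there were 21 higher and 2 lower, where the share over all genes was 6.43% higher and 4.39% lower, and DESeq2 called 4 higher (GPX1, PRDX5, GLRX5 and SOD1) and 1 lower (TXNIP), against its shares over all genes of 2.46% and 0.661%. The fitted log2 fold change was above 0 for 84 of the 120 genes, with a median of 0.082. As given above, the median over all genes tested differed by exon length. The fits that follow keep 1 siLOC730101 library, so their calls cannot measure the spread of that group. Leaving out siLOC730101 replicate 1 raised the calls over all genes to 4.3% higher and 1.27% lower (edgeR), and 17 of the related genes were then called higher and 2 lower. Leaving out replicate 2 gave 0.355% and 0.277% over all genes and no call among the related genes.

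Among the 18 NRF2 regulators and partners, 12 had a log2 fold change above 0 and the median was 0.068. CUL3, the scaffold of the ligase that KEAP1 serves, had 75.8 and 81.4 normalized CPM in siControl and 79.1 and 82.8 in siLOC730101, and its log2 fold change of 0.043 was within 1 SE (0.085) of 0. RBX1, the RING subunit of the same ligase, had 49.8 and 47.2 in siControl and 57.5 and 64.7 in siLOC730101 (log2 fold change 0.33, edgeR adjusted p = 0.169). SQSTM1, an autophagy receptor that binds KEAP1, had a log2 fold change of 0.24 (edgeR adjusted p = 0.221). BACH1, the repressor that shares the element with NRF2, had 34.4 and 35.2 in siControl and 30.0 and 28.0 in siLOC730101, without overlap. The log2 fold change was -0.26 (edgeR adjusted p = 0.369). MAFG, a small MAF partner of NRF2, had a log2 fold change of 0.077, and NFE2L1, the related factor NRF1, of 0.086, with adjusted p-values of 0.854 and 0.756 (edgeR).

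Of 28 other NRF2 targets, 27 were tested, 16 had a log2 fold change above 0 and the median was 0.068. GCLC, the catalytic partner of GCLM, stood at 33.8 and 33.3 normalized CPM in siControl and at 36.0 and 34.5 in siLOC730101 (log2 fold change 0.070, edgeR adjusted p = 0.881). SLC7A11, the cystine importer that feeds glutathione synthesis, had 431.0 and 431.4 in siControl and 419.2 and 373.0 in siLOC730101 (log2 fold change -0.12, edgeR adjusted p = 0.606). The smallest p-values of this list belonged to FTL, the ferritin light chain (log2 fold change 0.27, edgeR adjusted p = 0.207), and TALDO1 of the pentose phosphate pathway (0.21, edgeR adjusted p = 0.288). The highest and lowest values of the list, 1.75 for ABCC2 and -0.41 for CBR3, rest on 2 to 16 and 41 to 73 counts; these 2 genes were chosen after their values were seen.

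The thioredoxin and peroxiredoxin list had the highest median of the 8, at 0.19, with 19 of 21 genes above 0. An unadjusted p under 0.05 was found for 9 higher genes and 1 lower gene of the 21, where the share over all genes was 6.43% and 4.39%. Because the list was chosen with earlier results of these data known, this count is not a test of the list. PRDX5, a peroxiredoxin found in several compartments, had 145.3 and 152.4 normalized CPM in siControl and 172.1 and 214.1 in siLOC730101 (log2 fold change 0.38, edgeR adjusted p = 0.116). GLRX5, a mitochondrial glutaredoxin of iron-sulfur cluster assembly, had 73.1 and 79.2 in siControl and 90.4 and 105.9 in siLOC730101 (log2 fold change 0.37, edgeR adjusted p = 0.122). In both genes replicate 2 was the higher siLOC730101 library by a margin wider than the spread of the siControl libraries. TXNIP, which binds and inhibits thioredoxin, went the other way, with 260.1 and 280.6 in siControl and 226.6 and 223.6 in siLOC730101. The log2 fold change was -0.26 with an SE of 0.075 (edgeR adjusted p = 0.162).

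In the glutathione list, 23 of 27 genes were tested, 19 were above 0 and the median was 0.11. GPX1, the abundant cytosolic glutathione peroxidase and also a selenoprotein, had the smallest p of all 120 genes. It had 242.7 and 246.7 normalized CPM in siControl and 285.4 and 368.9 in siLOC730101, and the siLOC730101 libraries were far apart. The log2 fold change was 0.42 (SE 0.098, edgeR adjusted p = 0.0963). CHAC2, which degrades glutathione, had a log2 fold change of 0.33 (edgeR adjusted p = 0.476). The glutathione transferases beside LOC730101 on chromosome 6 had log2 fold changes of 0.096 (GSTA1), 0.19 (GSTA2) and 0.10 (GSTA4), with adjusted p-values of 0.767, 0.895 and 0.761 (edgeR). GSTP1, which is silenced in many prostate cancers, had 0 counts in every library. GPX7 and GSTM4 of the same list also had 0 counts in every library. These genes were not among those set to be named.

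**Figure D5:**
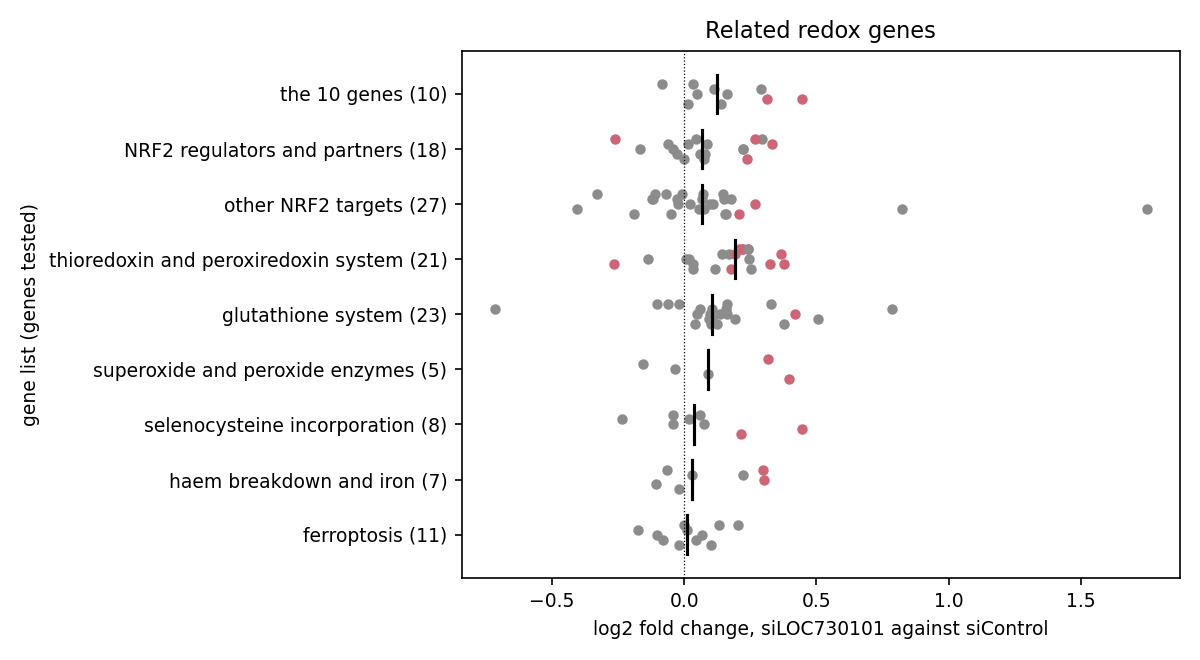
Log2 fold change of each tested gene in the 10-gene set and the 8 related lists; red points have an unadjusted p under 0.05, black bars are medians and the dotted line is the median of all genes tested. The medians reach from 0.010 for the ferroptosis list to 0.19 for the thioredoxin and peroxiredoxin list.

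In the 5 superoxide and peroxide enzymes, SOD1 had 224.1 and 215.6 normalized CPM in siControl and 246.4 and 300.7 in siLOC730101 (log2 fold change 0.32, edgeR adjusted p = 0.163). CCS, the chaperone that loads copper into SOD1, had 23.0 and 22.2 in siControl and 29.7 and 29.8 in siLOC730101 (0.39, edgeR adjusted p = 0.169). The median of this list was 0.092, and 3 of the 5 were above 0. The 8 genes of selenocysteine incorporation, on which GPX4 and TXNRD1 depend, had a median of 0.037 with 5 above 0. Within it, PSTK, the kinase that prepares the tRNA for selenium, had a log2 fold change of 0.44 (edgeR adjusted p = 0.282), and SECISBP2, which reads the selenocysteine element, of 0.21 (edgeR adjusted p = 0.432). EEFSEC, the elongation factor of selenocysteine and named here after its value was seen, had a log2 fold change of -0.24 (edgeR adjusted p = 0.595).

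In haem breakdown and iron handling, 7 of 9 genes were tested, 4 were above 0 and the median was 0.029. BLVRB, a biliverdin reductase, had 148.7 and 152.8 normalized CPM in siControl and 164.5 and 207.3 in siLOC730101 (log2 fold change 0.30, edgeR adjusted p = 0.215). HMOX2, the constitutive relative of HMOX1, had 34.8 and 30.2 in siControl and 34.5 and 45.4 in siLOC730101, which overlapped (0.30, edgeR adjusted p = 0.421). Of 13 ferroptosis genes, 11 were tested, 6 were above 0 and the median was 0.010, with 0 genes at an unadjusted p under 0.05. The smallest p-values there belonged to LPCAT3, a lipid-remodelling acyltransferase (0.20, edgeR adjusted p = 0.486), and MBOAT2 (0.13, edgeR adjusted p = 0.581).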

How the data were processed

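RNA of 4 libraries was measured, 2 siControl and 2 siLOC730101. Raw counts were deposited: after trimming and alignment the authors counted exons by gene name with featureCounts 2.0.1 on hg38 and gencode 41, as the file header states. The methods of the paper name STAR with hg19, and the submitters' processing notes name BWA with hg38. The header shows no paired-end, strand, multi-overlap or multi-mapping option, so that mates may be counted apart and reads of overlapping genes on opposite strands are not separated; 66.0% to 70.1% of counts from 1 to 20 were even. All count columns were matched to samples. Library totals ranged from 39213498 to 53368158 counts.

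Counts were fitted in R 4.3.3 with edgeR 4.0.16 (filterByExpr, TMM, estimateDisp, glmQLFit and glmQLFTest at package defaults, group as the only term), and adjusted by Benjamini-Hochberg over 19349 genes. The edgeR standard errors were taken as the absolute log2 fold change divided by the square root of the quasi-likelihood F statistic. Intervals use these standard errors and the moderated degrees of freedom. The biological coefficient of variation was 0.147. Same-group libraries differed by a chi-square per degree of freedom of 11.27 in siControl and 14.2 in siLOC730101, so each counts as its own library. DESeq2 1.42.0 was an alternative, beside other scalings and filters, other quasi-likelihood settings, halved counts, the replicate number as a block and leaving out each library. Removal of a trend with exon length was added after seeing the data. The fit was tested on simulated data. Sequences and exon overlaps were searched with Python 3.11.15.

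The 10 genes and the 8 lists were chosen with earlier results of these data known. Set to be named from the lists were genes with an adjusted p under 0.05, the 2 smallest p-values of each list, and some fixed genes. The fixed genes were CUL3, BACH1, MAFG, NFE2L1, GCLC, SLC7A11, TXNIP, GSTA1, GSTA2 and GSTA4. Other genes named from the lists fall outside this rule.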

Additional observations from a re-analysis of the deposited data

How the results depend on the processing

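With 2 libraries in a group, the count of calls depends on the settings, and the numbers below are given as higher and lower. Those over all genes are totals and not shares. The number of genes tested differed by setting, with 19349 in the reported fit and 9525 given an adjusted p by DESeq2. Leaving out a library leaves 1 in its group, so those calls rest on the spread of the other group alone. Of the 10 genes, 0 and 0 were called in the reported fit. The number called higher was 1 with every gene of at least 1 count, with DESeq2 and with the replicate block, 2 at an unadjusted p under 0.05, and 0 to 3 when each library was left out, with GPX4, TXN and KEAP1 called without siLOC730101 replicate 1; 0 were called lower in every setting run. Of the 120 related genes, 0 and 0 in the reported fit became 6 and 1 with every gene of at least 1 count, 4 and 1 with DESeq2, 9 and 1 with the replicate block, and 21 and 2 at an unadjusted p under 0.05. It was 1 and 0 with a mean normalized count above 50, with the legacy method off and with halved counts, and from 0 to 17 higher and from 0 to 2 lower when each library was left out. Over all genes, 41 and 14 became 324 and 113 with every gene of at least 1 count, 123 and 50 with a mean normalized count above 50, 234 and 63 with DESeq2, 87 and 24 with the legacy method off, 485 and 167 with the replicate block, 113 and 35 with halved counts, 1244 and 850 at an unadjusted p under 0.05, and 73 and 29 with the trend with exon length removed; 35 were lower with library size only. It was 77 to 923 higher and 26 to 272 lower when each library was left out. GPX4 passed under the replicate block (log2 fold change 0.31, adjusted p = 8.62e-04, edgeR). The labels give no shared batch for a replicate number. The differences between replicates 1 and 2 of the groups had a correlation of 0.040 across 14245 genes. A low correlation cannot exclude a weak effect shared by replicate number, so whether the libraries are paired is not known. GCLM was -0.0147 with upper-quartile factors, -0.0208 with library size only, and -0.0381 to 0.0753 when each library was left out. KEAP1 was -0.052 to 0.269 and NQO1 -0.0495 to 0.149 when each library was left out, both lowest without siLOC730101 replicate 2, and TXNRD1 was -0.00416 with library size only. LOC730101 stayed called in every setting, from -1.67 to -1.44. DESeq2 gave SRXN1 no adjusted p. The cause of these shifts was not tested.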
